A study of Mus musculus with 12 samples.

Results

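Mouse small intestine given both mesenchymal stem cells and melphalan, the MSC+Mel group, was compared with untreated small intestine, the Control group, to see what remained of the drug injury. The 6 libraries of these groups, 3 in each, were picked by their labels out of the 12 libraries of the series, and no measured value entered the choice. The MSC+Mel libraries carry the treatment label mesenchymal stem cell + Melphalan, and the series title gives human umbilical cord as the source of the cells. The Control libraries are labelled wild type control. Values from Melphalan (3 libraries, drug alone) and Mel+MSC (3 libraries, drug and cells with the names in the other order) are set beside them where they bear on a result. The labels give no dose, route, interval, hour of collection, strain, sex or age, and do not explain why the cells and the drug are named in a different order in the combined groups. They do not state that each library is a separate mouse, so p-values refer to the spread between these libraries only, which may be technical.

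Melphalan is a nitrogen mustard that crosslinks DNA strands. In the intestine such drugs hit the dividing cells of the crypt first: p53 is switched on, mitosis stops, and the supply of new absorptive and secretory cells to the villus runs short. Stem cells and the transit-amplifying cells above them then refill the crypt, so proliferation genes, stem cell genes and p53 targets are the usual readouts of injury and of its repair.

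Transcript levels are in FPKM, the fragments counted on a gene per kilobase of its transcript, scaled between libraries, for 55484 genes. The rule of that scaling is not given in the sources used here. Tested were the 12847 genes that reached 1 FPKM in no fewer than 3 of the 12 libraries. Changes are differences of log2(FPKM + 1), MSC+Mel minus Control, which understates the change of low genes. A gene is called when limma's moderated test gives a Benjamini-Hochberg adjusted p under 0.05 over all genes tested. The absolute depth is unknown, but the FPKM worth of a single read put the depth of the 3 MSC+Mel libraries at an equal level. Against them the Control libraries stood at 0.877, 1.007 and 0.742. The FPKM values summed to between 516851 and 557743 in MSC+Mel and between 536360 and 710451 in Control. The MSC+Mel libraries were the most alike of any group, with Spearman correlations of 0.972 to 0.981 between libraries and a mean residual variance of 0.0806, against 0.943 to 0.957 and 0.176 in Control. All 12 genes that define intestinal epithelium passed the filter and none was at 0 in any of the 6 libraries. Their summed level ran from 4457 to 5066 FPKM in MSC+Mel and from 4604 to 5603 FPKM in Control. An exact 0 in these files can be a failed estimate, since mt-Co1, which every cell uses, is listed at 0 in all 12 libraries.

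Of the 12847 genes tested, 22 (0.171%) were called between MSC+Mel and Control. Of these, 8 (0.0623%) rose and 14 (0.109%) fell. At an unadjusted p under 0.05 there were 1508 genes (11.7%), 721 of them higher (5.61%) and 787 lower (6.13%). Melphalan alone against the same Control libraries gave 171 calls (1.33%), of which 64 were higher (0.498%) and 107 lower (0.833%). Mel+MSC against them gave 0 calls, fewer than MSC+Mel. For 8355 genes (65%) the 95% interval of the change between MSC+Mel and Control lay within 1 log2 unit of 0, that is within a doubling or halving of FPKM + 1. The remaining intervals reach past that size, and the median interval extended 0.566 log2 units to either side. The median change over all genes was -0.01, and 48.8% of genes had a fitted change above 0.

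The number of calls rests on single libraries. Without MSC+Mel 1, without MSC+Mel 2 or without Control 3 there were 0 calls, with 1152, 819 and 1208 genes at an unadjusted p under 0.05. Without MSC+Mel 3, Control 1 or Control 2 there were 5, 8 and 6. None of the 22 genes changed direction in these, which was fixed in advance, because their MSC+Mel and Control libraries did not overlap. Letting each group have its own variance moved the count the other way, to 362 calls (2.82%), 175 higher (1.36%) and 187 lower (1.46%), among them all 22.

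**Figure D1:**
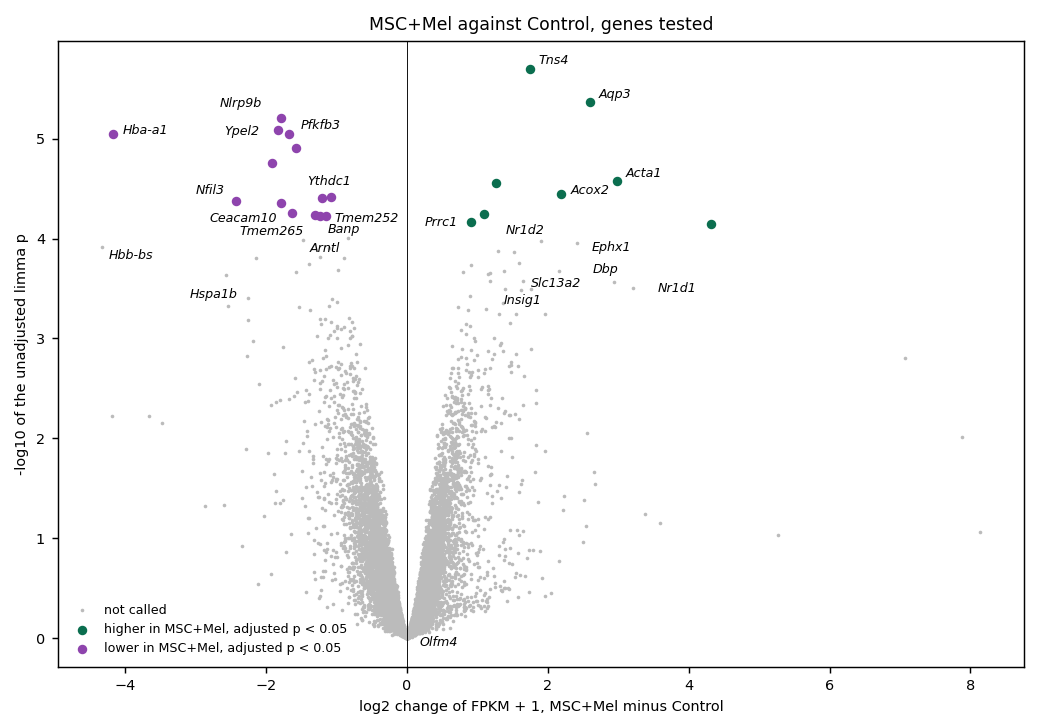
Change of each tested gene between MSC+Mel and Control (x axis, log2 of FPKM + 1, MSC+Mel minus Control) against the strength of its test (y axis, -log10 of the unadjusted limma p). Green points are the 8 genes that rose, purple points the 14 that fell, and the named grey points, among them Ephx1, Nr1d1, Dbp and Hspa1b, lie below the line of the calls, while Olfm4 sits near 0 on both axes.

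Among the genes that rose were a water and glycerol channel, a muscle actin, a peroxisomal oxidase and a focal adhesion adaptor. The rule that names called genes in either direction requires MSC+Mel and Control libraries that do not overlap. Their separation was therefore fixed by the choice. Aqp3 (chr4:41092722-41098183, GRCm38) encodes the aquaglyceroporin of the basolateral membrane. It stood at 35.1, 40.1 and 24.1 FPKM in the MSC+Mel libraries, against 4.85, 3.81 and 5.04 FPKM in the Control libraries. The lowest MSC+Mel library was far above the highest Control library, and the fitted change was 2.59 ± 0.32 (SE, adjusted p = 0.0194).

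Tns4 (chr11:99065678-99089306) encodes tensin 4, an adaptor at focal adhesions that lacks the actin-binding part of the other tensins. Its levels were 10.3, 10.2 and 7.72 FPKM in MSC+Mel, against 2.46, 2.12 and 1.71 FPKM in Control. It rose by 1.74 ± 0.20 (SE, adjusted p = 0.0194), and no MSC+Mel library came near a Control library. The other groups stayed low, with 1.87, 2.58 and 2.27 FPKM in Mel+MSC and 2.24, 2.70 and 3.67 FPKM in Melphalan. MSC+Mel differed from each of them (adjusted p = 0.0378 against Mel+MSC and 0.0110 against Melphalan). Tns4 was the sole gene of 12847 (0.00778%) called between MSC+Mel and Mel+MSC.

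Acox2 (chr14:8225511-8259353) encodes a peroxisomal oxidase of branched fatty acids and bile acid precursors. It had 6.76, 8.34 and 4.59 FPKM in MSC+Mel, against 0.809, 0.363 and 0.712 FPKM in Control, where all 3 libraries were below 1 FPKM. The change was 2.19 (adjusted p = 0.0374). Prrc1 rose by 0.92 (adjusted p = 0.0414), with 26.2, 30.9 and 25.9 FPKM in MSC+Mel against 12.9, 13.2 and 16.7 FPKM in Control.

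Acta1 (chr8:123891769-123894751) encodes the alpha-actin of skeletal muscle, and showed the largest rise of the called genes named here. It had 13.5, 21.7 and 11.2 FPKM in MSC+Mel, against 0.878, 1.11 and 1.07 FPKM in Control (change 2.98, adjusted p = 0.0358). The groups were far apart. Another striated muscle gene did not share the direction: Ckm, the muscle creatine kinase, looked up after the Acta1 values were seen, had 3.81, 3.12 and 3.48 FPKM in MSC+Mel and 11.9, 8.61 and 7.05 FPKM in Control. Mylpf, looked up with Ckm, overlapped, at 1.49, 1.63 and 1.42 FPKM in MSC+Mel and 1.33, 1.49 and 1.78 FPKM in Control. Of the 17 genes of the smooth muscle list, which also holds Acta1, 2 had a fitted change above 0 and 15 below. Acta1 is 1 of those 2. Acta1 shares long stretches of sequence with the other actins, so its level is uncertain where reads could be split among them.

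The genes that fell included a transcriptional repressor of the clock, a glycolytic regulator, an innate immune sensor, a reader of RNA methylation and the alpha globins. Pfkfb3 (chr2:11471433-11554077) makes and breaks fructose 2,6-bisphosphate, which drives glycolysis. It had 10.7, 10.2 and 8.08 FPKM in MSC+Mel, against 27.2, 33.6 and 38.0 FPKM in Control, with no overlap. The change was -1.67 ± 0.22 (SE, adjusted p = 0.0194).

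Nlrp9b (chr7:19991465-20073306) encodes a sensor of viral RNA that assembles an inflammasome in mouse intestinal epithelial cells. It stood at 3.35, 3.62 and 4.42 FPKM in MSC+Mel and at 13.8, 13.3 and 20.4 FPKM in Control (change -1.79, adjusted p = 0.0194). Ypel2 (chr11:86936425-86993707) showed 2.01, 3.14 and 4.59 FPKM in MSC+Mel and 11.1, 14.5 and 15.6 FPKM in Control (change -1.83, adjusted p = 0.0194). Ceacam10, a secreted member of the carcinoembryonic antigen family, had 2.33, 1.23 and 1.44 FPKM in MSC+Mel and 6.95, 8.88 and 5.79 FPKM in Control (change -1.63, adjusted p = 0.0385). In each of the 3 genes every MSC+Mel library lay below every Control library.

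Ythdc1 (chr5:86804221-86836659), the nuclear reader of N6-methyladenosine in RNA, had 15.9, 14.4 and 12.1 FPKM in MSC+Mel, against 28.5, 33.6 and 40.4 FPKM in Control (change -1.21, adjusted p = 0.0374). Banp (chr8:121949750-122029258), a nuclear protein that binds a CG-rich promoter element, had 2.66, 2.57 and 2.19 FPKM in MSC+Mel, against 6.32, 7.22 and 7.95 FPKM in Control (change -1.23, adjusted p = 0.0385). The membrane protein genes Tmem265 and Tmem252 fell by 1.3 and 1.15 on the log2 scale, with adjusted p = 0.0385 for each. Irf2bp2, a co-repressor that binds IRF2, also fell, by 1.08 (adjusted p = 0.0374), which was outside the 10 lowest changes that the rule names. Another 3 of the 22 were predicted genes, 1 higher and 2 lower.

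The alpha globin genes of red cells, Hba-a1 (chr11:32283511-32284465) and its near-identical copy Hba-a2, were almost absent from MSC+Mel. Hba-a1 was listed at 0.241, 0 and 0 FPKM in MSC+Mel, against 37.3, 11.7 and 13.9 FPKM in Control (adjusted p = 0.0194). Hba-a2 was listed at 0 in all 3 MSC+Mel libraries, against 3.03, 2.11 and 3.29 FPKM in Control (adjusted p = 0.0281). The beta globin Hbb-bs gave 0.0758, 0.304 and 0 FPKM in MSC+Mel and 63.5, 11.1 and 13.7 FPKM in Control without passing the threshold (adjusted p = 0.0576). Reads of the globin copies could be split between them, so the single values are uncertain. The 9 red cell markers in the table summed to 26.3 to 28.8 FPKM in MSC+Mel, almost all of it Bpgm, which other cells also express, and to 55.0 to 131 FPKM in Control. In bulk tissue, fewer cells of a type and less RNA per cell cannot be told apart, and the amount of blood left in each piece of tissue is not given in the sources used here.

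**Figure D2:**
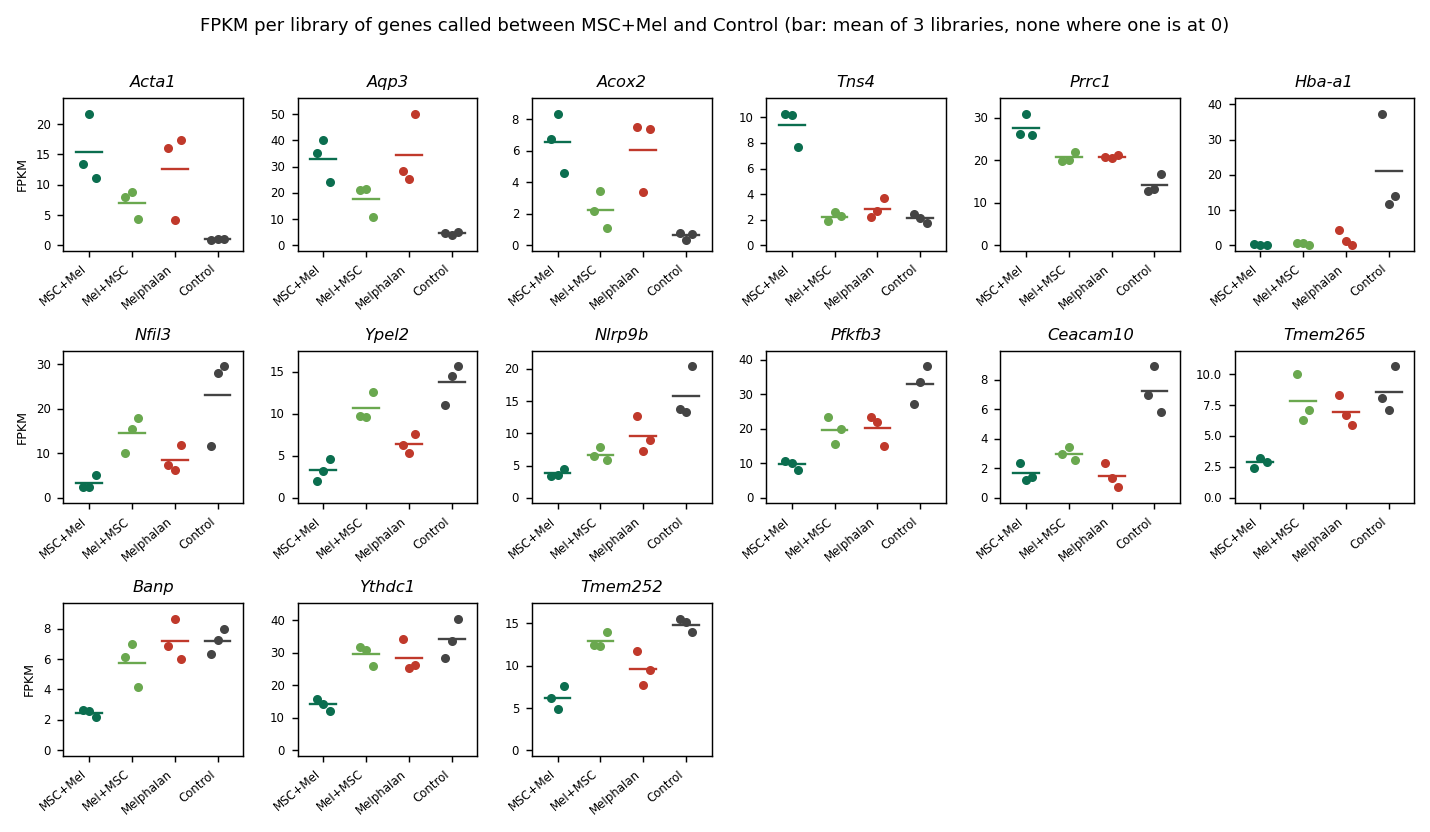
FPKM (y axis, linear, from 0) in each library of 15 called genes, with MSC+Mel, Mel+MSC, Melphalan and Control from left to right; points are single libraries and bars group means, left out where a library is at 0. In all 15 panels the 3 MSC+Mel points lie clear of the 3 Control points, which the rule that picked these genes requires. In Tns4, Prrc1, Nlrp9b, Banp, Ythdc1, Tmem265, Pfkfb3, Ypel2, Nfil3 and Tmem252 they also lie clear of every other library.

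These called genes can be sorted by which comparisons with the drug-alone libraries passed the threshold. Aqp3, Acta1, Acox2 and Ceacam10 were called in the same direction between Melphalan and Control (adjusted p = 0.00786, 0.0224, 0.0187 and 0.0149). Their MSC+Mel levels were close to those of Melphalan: Aqp3 had 35.1, 40.1 and 24.1 FPKM in MSC+Mel, 28.2, 25.2 and 50.1 FPKM in Melphalan, and 4.85, 3.81 and 5.04 FPKM in Control. The difference between MSC+Mel and Melphalan was -0.02 for Aqp3, 0.44 for Acta1, 0.13 for Acox2 and 0.13 for Ceacam10, none past the threshold (adjusted p = 0.574 to 0.969).

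Tns4, Nlrp9b, Banp, Ythdc1 and Tmem265 differed from Melphalan as well as from Control, in a comparison of MSC+Mel with Melphalan that called 1.24% of all genes. The difference between MSC+Mel and Melphalan was -1.22 for Banp (adjusted p = 0.0261), -0.96 for Ythdc1 (0.0377), -1.13 for Nlrp9b (0.0412) and -1.04 for Tmem265 (0.0412). In Banp the Melphalan libraries, at 6.85, 8.63 and 5.99 FPKM, overlapped the Control libraries. Both comparisons use the same MSC+Mel libraries, so they are not independent of each other. For Prrc1, Nfil3, Ypel2, Pfkfb3 and Tmem252, neither MSC+Mel nor Control differed from Melphalan past the threshold. The Melphalan mean lay between those of MSC+Mel and Control in these genes. It did so in the other called genes named above too, except Aqp3 and Ceacam10. Hba-a1 was also called between Melphalan and Control (adjusted p = 0.0239).

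Dividing crypt cells, the main target of melphalan, showed levels in MSC+Mel that overlapped those of Control. Summed over the list, G2 and M phase genes gave 471, 433 and 398 FPKM in MSC+Mel and 541, 601 and 304 FPKM in Control. S phase genes gave 410, 371 and 336 FPKM in MSC+Mel and 455, 490 and 291 FPKM in Control. In both sums the overlap rests on Control 3, with every MSC+Mel library below Control 1 and Control 2. None of the 30 genes of the G2 and M phases was called in MSC+Mel against Control, and none had an unadjusted p under 0.05. Of these, 15 had a fitted change above 0 and 15 below, the median was 0.01, and 18 had an interval within 1 log2 unit of 0. In Melphalan against Control the median of the same genes was -1.24, with 30 of 30 below 0 and 6 called lower (0.833% of all genes were). The 33 S phase genes had a median of 0.06 in MSC+Mel, with 19 above 0, 14 below and 2 lower at an unadjusted p under 0.05, beside -0.57 in Melphalan.

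Single genes show the same levels library by library. Ccnb2, the cyclin that drives entry into mitosis, had 22.7, 21.6 and 20.7 FPKM in MSC+Mel, 3.79, 6.07 and 6.13 FPKM in Melphalan, and 27.3, 31.6 and 15.5 FPKM in Control. Mki67, the proliferation marker Ki-67, had 18.8, 17.5 and 18.3 FPKM in MSC+Mel and 17.2, 20.4 and 8.95 FPKM in Control. In both genes the MSC+Mel values fell inside the Control range, and the changes were -0.13 (95% interval -0.68 to 0.42) and 0.29 (-0.56 to 1.14). Melk, a kinase of dividing cells, changed by -0.03 (-0.53 to 0.46).

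Olfm4, a secreted protein that marks the crypt base, stood at 199, 269 and 257 FPKM in MSC+Mel, 7.16, 2.37 and 7.99 FPKM in Melphalan, and 399, 361 and 79.5 FPKM in Control. The MSC+Mel values sat within the wide Control range, and the change was 0.08 (95% interval -1.22 to 1.38, adjusted p = 0.978). Without Control 3, the low Control library, the change was -0.66. Of the 22 crypt stem cell genes tested, 14 had a fitted change above 0 and 8 below, with a median of 0.09 in MSC+Mel and -0.46 in Melphalan. None was called in MSC+Mel. The list summed to 501, 597 and 570 FPKM in MSC+Mel and to 748, 765 and 279 FPKM in Control. Here too the overlap of the sums rests on Control 3. Ephb2, the receptor that positions cells along the crypt, had 6.17, 8.89 and 7.28 FPKM in MSC+Mel and 5.48, 4.91 and 2.25 FPKM in Control (0.75, adjusted p = 0.379). Prom1 went the other way, with 33.7, 21.6 and 30.2 FPKM in MSC+Mel and 49.7, 76.7 and 43.3 FPKM in Control (-0.95, adjusted p = 0.398). Lgr5, the receptor that defines these stem cells, was too low to be tested: 0.228, 1.13 and 0.619 FPKM in MSC+Mel and 0.747, 0.747 and 0.856 FPKM in Control.

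Most p53 targets had levels in MSC+Mel that overlapped Control. Of 25 targets of arrest and feedback, none was called in MSC+Mel, 18 had a fitted change above 0, and the median was 0.16. At an unadjusted p under 0.05, 4 were higher (5.61% of all genes were) and 0 lower. In 5 all MSC+Mel libraries lay above all Control libraries (13.4% of all genes did). The list summed to 411, 425 and 381 FPKM in MSC+Mel and to 356, 297 and 433 FPKM in Control. The overlap of these sums rests on Control 3. In Melphalan 8 of the 25 were called higher (0.498% of all genes were) and the median was 0.82. Phlda3, an inhibitor of Akt, had 2.49, 2.77 and 3.91 FPKM in MSC+Mel, 20.9, 13.7 and 13.0 FPKM in Melphalan, and 3.28, 2.05 and 1.5 FPKM in Control (0.33, 95% interval -0.30 to 0.96). Cdkn1a, the p21 inhibitor of cyclin-dependent kinases, had 119, 97.3 and 103 FPKM in MSC+Mel and 79.3, 66.7 and 111 FPKM in Control (0.33, -0.30 to 0.97). In both genes the MSC+Mel and Control libraries overlapped, in Phlda3 through Control 1 and in Cdkn1a through Control 3. Mdm2, the ligase that degrades p53, changed by 0.16 (-0.20 to 0.51), the stress cytokine Gdf15 by 0.25 (-0.31 to 0.82) and the death effector Bax by -0.04 (-0.88 to 0.80).

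The largest change on the list was that of Ephx1 (chr1:180976210-181020904), the microsomal epoxide hydrolase, which detoxifies reactive epoxides. It had 12.7, 33.2 and 17.0 FPKM in MSC+Mel, 33.2, 23.4 and 63.3 FPKM in Melphalan, and 3.46, 3.80 and 1.58 FPKM in Control. Every MSC+Mel library was above every Control library, and the change of 2.42 (95% interval 1.5 to 3.34) missed the threshold (adjusted p = 0.0552). It was called when each group had its own variance (adjusted p = 0.0140), the setting with the most calls, but not in the 6 libraries alone. Slc13a2, the citrate and succinate carrier of the brush border, showed the same order of group means against Control: 124, 101 and 71.3 FPKM in MSC+Mel, 75.3, 112 and 154 FPKM in Melphalan, and 25.0, 10.9 and 31.8 FPKM in Control (2.17, adjusted p = 0.0672). The 15 p53 targets of cell death had a median of -0.23, with 4 above 0 and 11 below, and none called.

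Antimicrobial products of Paneth cells had lower fitted levels in MSC+Mel, without a call. Of 21 alpha-defensin genes tested, 20 had a fitted change below 0, 11 had all MSC+Mel libraries below all Control libraries (14.4% of all genes did), and 10 were lower at an unadjusted p under 0.05. The median was -1.17 in MSC+Mel and -1.53 in Melphalan, beside -0.01 over all genes. These genes are near-identical copies, so reads could be split among them and they are not separate witnesses. Defa26 had 10.3, 12.4 and 18.3 FPKM in MSC+Mel, 3.66, 1.91 and 4.22 FPKM in Melphalan, and 63.4, 34.5 and 34.0 FPKM in Control, so the MSC+Mel libraries lay between the other groups without overlap (-1.59 against Control, adjusted p = 0.185). Defa24 had 232, 274 and 403 FPKM in MSC+Mel and 595, 577 and 920 FPKM in Control (-1.21, adjusted p = 0.425).

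Other Paneth cell products and Reg lectins, 14 genes, had a median of -0.63, with 12 below 0 and 5 lower at an unadjusted p under 0.05. The mucosal pentraxin Mptx2 had 4.62, 5.36 and 11.4 FPKM in MSC+Mel and 18.4, 21.2 and 32.4 FPKM in Control (-1.67, adjusted p = 0.210). The ribonuclease angiogenin Ang4 had 10.5, 16 and 24.3 FPKM in MSC+Mel and 34.0, 27.1 and 62.6 FPKM in Control (-1.22, adjusted p = 0.248). Lysozyme, Lyz1, overlapped between the groups, at 150, 144 and 227 FPKM in MSC+Mel and 418, 211 and 330 FPKM in Control. In Mptx2, Ang4, Lyz1, Defa26 and Defa24 alike, MSC+Mel 3 was the highest library of its group. The lectins Reg3b and Reg3g varied more within groups than between them, and their changes were 0.08 and -0.20.

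The gasdermin C genes Gsdmc2, Gsdmc3 and Gsdmc4, of a family of pore-forming proteins, were at or near 0 in Melphalan and intermediate in MSC+Mel. Gsdmc2 had 7.34, 1.97 and 3.73 FPKM in MSC+Mel, 0, 0.209 and 0.129 FPKM in Melphalan, and 14.2, 13.1 and 7.59 FPKM in Control. Gsdmc4 had 15.9, 7.49 and 9.98 FPKM in MSC+Mel, 0, 0.0480 and 0.406 FPKM in Melphalan, and 36.3, 29.2 and 13.4 FPKM in Control. MSC+Mel differed from Melphalan in both (adjusted p = 0.0261 and 0.00737), and its change against Control was -1.32 and -1.12 (adjusted p = 0.189 and 0.320). Clca3b, of the Clca family of calcium-activated chloride channel regulators, overlapped Control: 101, 114 and 110 FPKM in MSC+Mel, 7.0, 4.84 and 11.3 FPKM in Melphalan, and 88.5, 107 and 29.9 FPKM in Control. These genes can share reads with their neighbouring copies.

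Goblet cell genes, 16 tested, had a median of -0.16 with 6 above 0 and 10 below, and none was called. The fitted changes of 2 main mucus proteins had opposite signs. Muc2, the gel-forming mucin, had 4.02, 5.33 and 9.17 FPKM in MSC+Mel and 3.52, 0.887 and 0.182 FPKM in Control (1.67, adjusted p = 0.183). These levels are low beside the goblet list, which summed to 3942 to 5158 FPKM in MSC+Mel and 6042 to 9927 FPKM in Control. Whether Muc2 was estimated well was not tested, so its sign is uncertain. Fcgbp, a protein crosslinked into the mucus, had 413, 300.1 and 452 FPKM in MSC+Mel and 828, 1147 and 1501 FPKM in Control (-1.55, adjusted p = 0.203).

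Absorptive enterocyte genes had fitted changes mostly above 0, those of sugar uptake with the highest median, and again without a call. Of 14 genes of sugar transport and fructolysis, 12 had a fitted change above 0, 6 were higher at an unadjusted p under 0.05 and the median was 0.56, beside 0.73 in Melphalan. Without Control 2 that median was 0.18. Slc2a5, the fructose transporter GLUT5, had 72.2, 92.2 and 50.4 FPKM in MSC+Mel and 11.4, 12 and 36.0 FPKM in Control (1.96, adjusted p = 0.112). Slc2a2, the basolateral transporter GLUT2, had 265, 239 and 164 FPKM in MSC+Mel and 94.8, 72.0 and 135 FPKM in Control (1.16, adjusted p = 0.199). In both genes the groups did not overlap, and Control 3 was the nearest Control library. G6pc, the phosphatase that releases free glucose, ran the other way, with 17.0, 19.6 and 21.1 FPKM in MSC+Mel and 40.4, 26.2 and 75.8 FPKM in Control (-1.13, adjusted p = 0.242).

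Brush border digestion, 22 genes, had a median of 0.32, beside 0.68 in Melphalan, where all 22 were above 0. In MSC+Mel 17 were above 0 and 4 higher at an unadjusted p under 0.05. Of the 22, 8 did not overlap (13.4% of all genes were above Control without overlap). Alpi, intestinal alkaline phosphatase, had 217, 369 and 241 FPKM in MSC+Mel and 147, 124 and 186 FPKM in Control (0.83, adjusted p = 0.343). Sucrase-isomaltase, Sis, changed by 0.78 (95% interval -0.02 to 1.58). Lipid absorption, 24 genes, had a median of 0.16, beside 0.52 in Melphalan. After quantile normalization the MSC+Mel medians of these lists were 0.52 and 0.25. The lipid absorption gene Scarb1, the scavenger receptor for HDL lipids, had 2.47, 6.12 and 4.26 FPKM in MSC+Mel and 0.756, 1.06 and 1.09 FPKM in Control (1.36, adjusted p = 0.101). The apolipoprotein Apoa4, at 0.06, could not be placed, since its interval ran from -1.07 to 1.19.

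The lists of lipid synthesis had medians above 0 in MSC+Mel and below 0 in Melphalan, each against Control. In the mevalonate pathway, acetyl-CoA is built up to cholesterol through mevalonate, squalene and lanosterol, and the factor SREBP2 switches on these genes when cells are short of sterol. Of the 24 genes of cholesterol synthesis and uptake, 22 had a fitted change above 0, 17 had all MSC+Mel libraries above all Control libraries (13.4% of all genes did), 13 were higher at an unadjusted p under 0.05 (5.61% of all), 1 was lower, and 1 was called higher (0.0623% of all). With a variance of its own for each group, the setting with the most calls, 8 of the 24 were called higher (1.36% of all). The median was 0.65 in MSC+Mel, beside -0.21 in Melphalan and -0.01 over all genes. Of 14 genes of fatty acid synthesis, 12 were above 0, 6 of them at an unadjusted p under 0.05, with a median of 0.67 in MSC+Mel and -0.33 in Melphalan.

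Along the pathway, Hmgcs1, which makes HMG-CoA, had 89.3, 56.1 and 66.3 FPKM in MSC+Mel and 47.8, 33.0 and 47.5 FPKM in Control (0.70, adjusted p = 0.346). Sqle, squalene epoxidase, had 35.5, 18.9 and 21.8 FPKM in MSC+Mel and 13.4, 11.1 and 6.03 FPKM in Control (1.25, adjusted p = 0.255). Both were without overlap, with MSC+Mel 1 the highest library each time. Insig1, which holds the SREBP complex in the endoplasmic reticulum and is itself a target, had 41.9, 39.4 and 39.0 FPKM in MSC+Mel and 16.7, 8.68 and 12.8 FPKM in Control (1.62, adjusted p = 0.0821). Srebf2 and Srebf1, which encode the SREBP factors, changed by 0.11 and 0.07. Pmvk, phosphomevalonate kinase, was the lower one (-0.47, adjusted p = 0.357).

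In fatty acid synthesis the smallest p belonged to Me1, the malic enzyme that supplies NADPH. Its levels were 19.9, 35.8 and 33.8 FPKM in MSC+Mel and 8.70, 7.69 and 9.29 FPKM in Control (1.65, adjusted p = 0.0744). Fasn, fatty acid synthase, had 29.6, 22.0 and 45.0 FPKM in MSC+Mel, 7.42, 11.4 and 3.48 FPKM in Melphalan, and 13.0, 14.2 and 6.38 FPKM in Control (1.45, adjusted p = 0.236). Acaca, acetyl-CoA carboxylase, had 6.34, 6.87 and 10.1 FPKM in MSC+Mel and 3.70, 2.37 and 1.45 FPKM in Control (1.35, adjusted p = 0.210). No MSC+Mel library of these genes reached down to a Control library. Fasn differed between MSC+Mel and Melphalan (adjusted p = 0.0466).

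Fat tissue also makes fatty acids, and most of its markers had fitted changes above 0, none of them called. The 11 adipocyte genes in the table summed to 122, 175 and 178 FPKM in MSC+Mel and to 101, 87.0 and 105 FPKM in Control. No more than 1 was at 0 in any of these libraries. Of 9 tested, 8 had a fitted change above 0, with a median of 0.91 that was 0.57 without Control 3. Adipoq, adiponectin, had 5.29, 4.36 and 11.3 FPKM in MSC+Mel and 3.81, 2.17 and 1.49 FPKM in Control. The part of fat tissue in the lipid synthesis values was not tested.

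**Figure D3:**
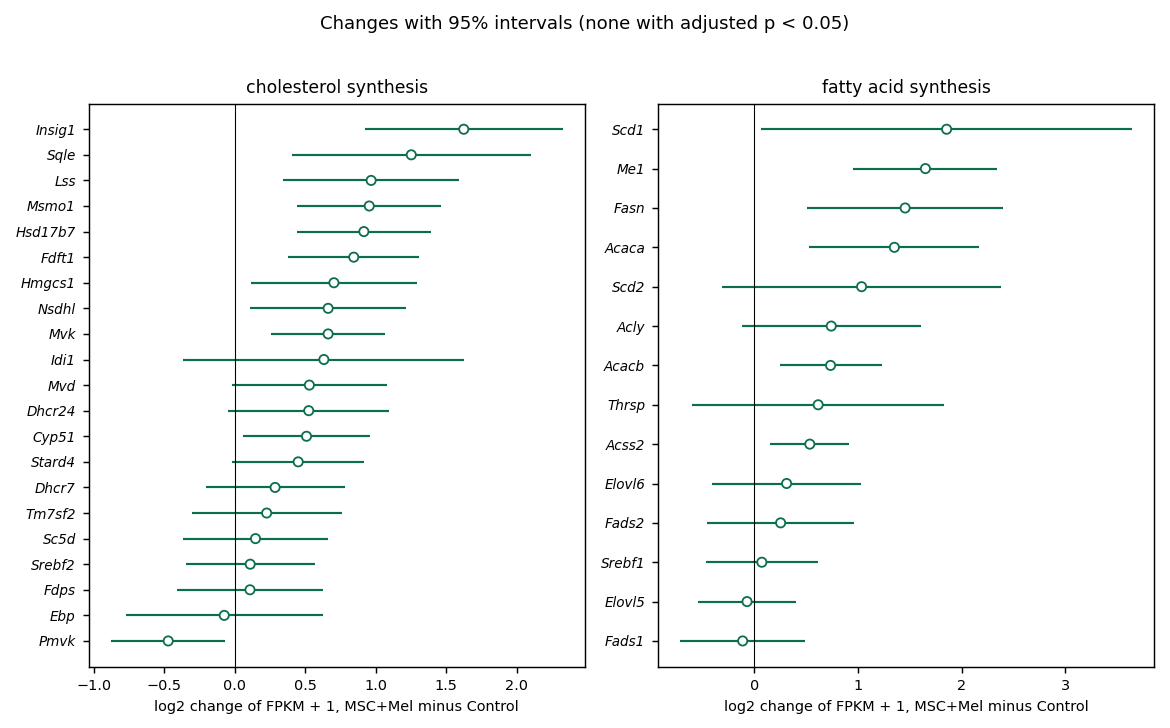
Change of genes of cholesterol synthesis (left, 21 of 24 tested) and fatty acid synthesis (right, 14), as log2 of FPKM + 1, MSC+Mel minus Control (x axis), with its 95% interval. In the left panel 19 of 21 points lie above 0 and in the right panel 12 of 14, and none of the genes drawn was called.

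The promoter of Hmgcs1 is shown because it is the single one among 19 promoters (5.26%) of 16 genes of the cholesterol list that carries the letters TCACCCCAC, a core sterol regulatory element. Both strands were searched over 300 bases, from 250 before to 50 after the start site. The letters occur in 0.551% of the 32851 promoters of the RefSeq table (GRCm38.p6). The 250 bases before the start site (chr13:119690101-119690350, plus strand) are given 5′ to 3′, with the element in capitals; it begins 137 bases before the start and overlaps no other motif searched.
Hmgcs1: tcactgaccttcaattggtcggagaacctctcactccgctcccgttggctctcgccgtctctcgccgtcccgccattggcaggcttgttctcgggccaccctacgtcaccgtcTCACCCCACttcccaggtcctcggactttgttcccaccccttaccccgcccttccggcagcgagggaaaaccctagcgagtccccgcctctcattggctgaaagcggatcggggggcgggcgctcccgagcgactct

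Clock genes had some of the largest fitted changes between the groups, and 1 of them was called. In the daily clock, the activators CLOCK and BMAL1 (gene Arntl) bind E-boxes and switch on Per, Cry, Nr1d1, Nr1d2, Dbp and Tef, while REV-ERB proteins (Nr1d1, Nr1d2) repress Arntl and Nfil3 through sites with the nuclear receptor half-site. Dbp and Tef activate, and Nfil3 represses, the same D-box targets. All of these cycle over the day in mouse tissues, and the hour of collection of each group is not given in the sources used here, so hour and treatment cannot be told apart.

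Nfil3 (chr13:52967209-52981073) was the called member. It had 2.35, 2.48 and 5.03 FPKM in MSC+Mel and 11.6, 28 and 29.5 FPKM in Control. It fell by 2.43 on the log2 scale (SE 0.38, adjusted p = 0.0374). Arntl had 4.58, 5.67 and 10.6 FPKM in MSC+Mel and 17.8, 20.0 and 22.5 FPKM in Control (-1.48, adjusted p = 0.0542). Both were lower in every MSC+Mel library, with MSC+Mel 3 the nearest to Control.

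The REV-ERB genes stood on the opposite side. Nr1d1 (chr11:98767932-98775333) had 33.3, 37.8 and 33.2 FPKM in MSC+Mel and 0.772, 1.95 and 10.1 FPKM in Control (3.21, adjusted p = 0.0821). Nr1d2 had 20.7, 22.8 and 14.3 FPKM in MSC+Mel and 3.95, 3.26 and 6.06 FPKM in Control (1.91, adjusted p = 0.0542). Control 3 was the highest Control library in both. Dbp (chr7:45705088-45710203) had 16, 25.4 and 3.78 FPKM in MSC+Mel and 0.772, 0.505 and 0.780 FPKM in Control (2.94, adjusted p = 0.0744). Its levels in MSC+Mel spread more than in any of the others, with MSC+Mel 3 the low library. Tef had 16.7, 21.9 and 8.91 FPKM in MSC+Mel and 8.01, 2.63 and 4.65 FPKM in Control (1.48, adjusted p = 0.174).

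Other clock genes spread over both directions. Cry1, a repressor of CLOCK and BMAL1, had 5.26, 5.46 and 4.09 FPKM in MSC+Mel and 11.8, 14.2 and 9.0 FPKM in Control (-1.08, adjusted p = 0.174). Per1 and Clock had changes of 0.02 (95% interval -0.79 to 0.82) and 0.31 (-0.33 to 0.95). Across the 12 core clock genes 6 were above 0 and 6 below, 2 higher and 4 lower at an unadjusted p under 0.05, so the median of -0.15 describes no common direction. In the 16 clock output genes 5 were higher and 3 lower at that level. Melphalan alone lay between the groups for Nr1d1, with 14, 21.9 and 24.4 FPKM, whereas for Arntl, with 12.1, 8.64 and 9.0 FPKM, it overlapped MSC+Mel. With a variance of its own for each group, the setting with the most calls, Nr1d1, Nr1d2, Arntl and Dbp were called too (adjusted p = 0.00867, 0.00688, 0.0260 and 0.0374). In the 6 libraries alone Nr1d2 was called (adjusted p = 0.03803), while Nr1d1, Arntl, Dbp and Nfil3 were not.

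The promoters of Nfil3, Nr1d2 and Tef, which carry such motifs in the searched window, show where these letters lie. The half-site AGGTCA occurs in 16.3% of the promoters of the table, in 4 of 13 promoters of the core clock list (30.8%) and in 3 of 16 of the output list (18.8%). The E-box CACGTG occurs in 7.15% of all, in 2 of 13 (15.4%) and in 4 of 16 (25.0%), the 4 from 3 genes. The D-box TTATGTAA occurs in 0.938% of all and in 1 promoter of each list. These promoters belong to 9 core clock genes and 13 output genes. The 19 promoters of the cholesterol list held the half-site in 5 (26.3%) and the E-box in 4 (21.1%), so these shares do not set the clock lists apart. Both strands were searched. Capitals mark the half-site in Nfil3 (chr13:52981040-52981289, minus strand), where it reads TGACCT because it lies on the opposite strand, 12 bases before the start, and in Nr1d2 (chr14:18239107-18239356, minus strand), 77 bases before. In Tef (chr15:81802423-81802672, plus strand) they mark the E-box, 127 bases before the start. The 250 bases before each start site follow, 5′ to 3′, from RefSeq (GRCm38.p6), and none of the marked motifs overlaps another one searched.
Nfil3: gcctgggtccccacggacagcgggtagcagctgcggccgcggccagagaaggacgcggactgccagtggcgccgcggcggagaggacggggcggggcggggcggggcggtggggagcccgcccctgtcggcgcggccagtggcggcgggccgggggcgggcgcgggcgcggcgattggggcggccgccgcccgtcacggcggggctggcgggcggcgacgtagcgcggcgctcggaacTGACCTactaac
Nr1d2: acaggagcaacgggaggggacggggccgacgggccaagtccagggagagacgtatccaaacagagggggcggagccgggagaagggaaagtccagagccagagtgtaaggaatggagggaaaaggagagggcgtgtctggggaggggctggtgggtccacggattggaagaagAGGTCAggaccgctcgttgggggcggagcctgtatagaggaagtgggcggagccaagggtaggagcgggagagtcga
Tef: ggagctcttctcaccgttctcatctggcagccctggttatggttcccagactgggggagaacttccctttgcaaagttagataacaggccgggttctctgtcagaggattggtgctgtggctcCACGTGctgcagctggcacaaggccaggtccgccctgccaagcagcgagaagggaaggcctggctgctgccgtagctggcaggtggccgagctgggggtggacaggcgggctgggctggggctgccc

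Heat shock chaperones, which hold and refold damaged proteins, had lower fitted levels in MSC+Mel throughout the list. All 18 had a fitted change below 0, 14 had all MSC+Mel libraries below all Control libraries (14.4% of all genes did), 11 were lower at an unadjusted p under 0.05 (6.13% of all), and none was called. With a variance of its own for each group, 5 of the 18 were called lower (1.46% of all), Hspa1b (adjusted p = 0.0113) and Hsph1 (0.0310) among them. That setting had the most calls. In the 6 libraries alone Hspa1b and Hsph1 were not called, while Hspb1 was (adjusted p = 0.03195). The median was -0.70 in MSC+Mel, beside -0.04 in Melphalan. Hspa1b, the inducible HSP70, had 1.43, 1.39 and 0.857 FPKM in MSC+Mel, 19.4, 13.5 and 6.72 FPKM in Melphalan, and 4.01, 10.9 and 18.9 FPKM in Control (-2.26, adjusted p = 0.0943). It differed between MSC+Mel and Melphalan (adjusted p = 0.0313). Its near-identical copy Hspa1a may share its reads. Hsph1, a co-chaperone of HSP70, had 28.5, 13.9 and 13.7 FPKM in MSC+Mel and 41.0, 73.8 and 79.5 FPKM in Control (-1.76, adjusted p = 0.154). The constitutive Hspa8 had 721, 631 and 556 FPKM in MSC+Mel and 1140.4, 1014 and 1157 FPKM in Control (-0.80, adjusted p = 0.248). The small heat shock protein Hspb1 had 7.54, 7.71 and 6.42 FPKM in MSC+Mel and 18.7, 18.7 and 15.6 FPKM in Control.

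**Figure D4:**
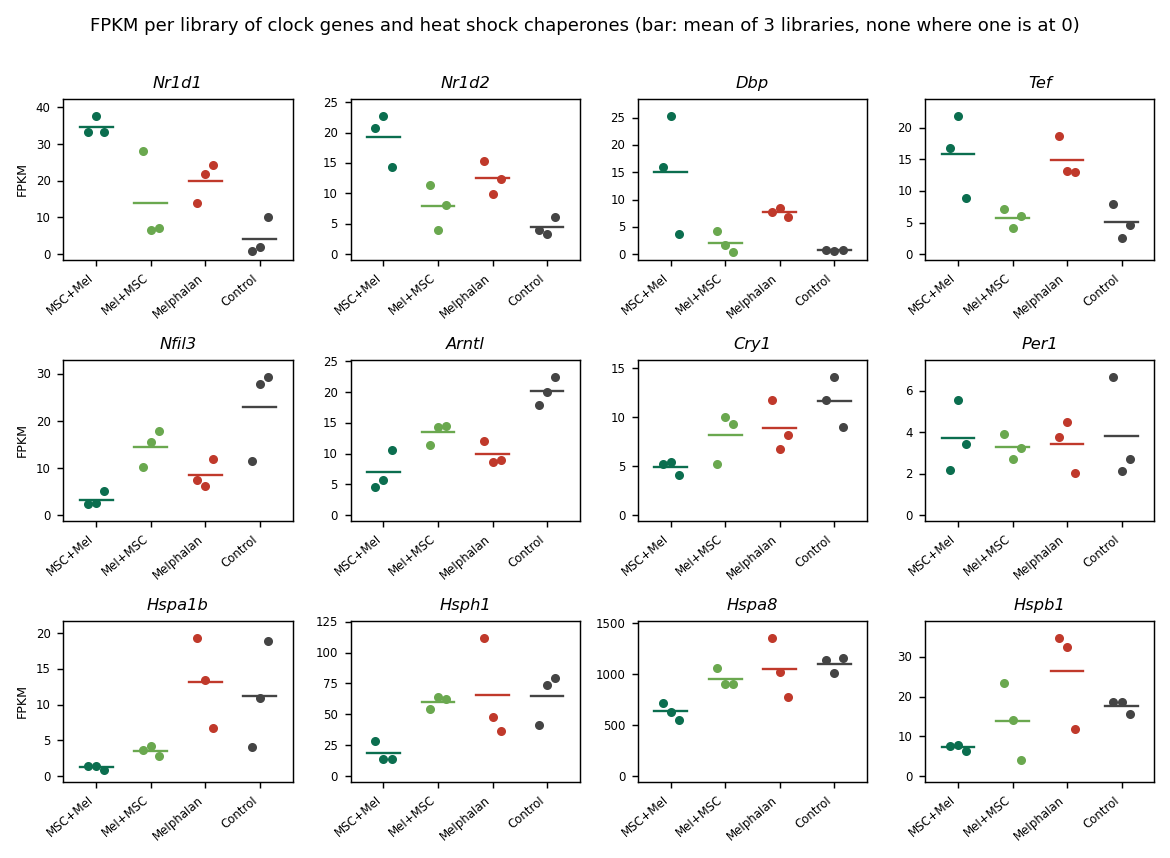
FPKM (y axis, linear, from 0) in each library of 8 clock genes (upper 2 rows) and 4 heat shock chaperones (bottom row), with MSC+Mel, Mel+MSC, Melphalan and Control from left to right; points are libraries and bars group means. Nr1d1, Nr1d2, Dbp and Tef are higher and Nfil3, Arntl, Cry1 and the chaperones lower in all 3 MSC+Mel libraries than in Control, and in Per1 the groups overlap.

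Other abundant housekeeping transcripts also had fitted changes mostly below 0, of smaller size. Of 55 nuclear-encoded respiratory chain genes, 47 had a fitted change below 0 (median -0.30), and of 68 cytosolic ribosomal protein genes, 59 did (median -0.26). At an unadjusted p under 0.05, 1 respiratory chain gene and 6 ribosomal protein genes were lower, beside 6.13% of all genes. Rplp2, of the ribosomal stalk, changed by -1.19 (adjusted p = 0.171). After quantile normalization the medians were closer to 0, at -0.16 for the respiratory chain and -0.011 for the ribosomal proteins, so their size depends on the scaling. Without Control 1 the respiratory chain median was -0.50 and without Control 3 it was -0.15, and without Control 2 the ribosomal median was -0.16. The mitochondrial ribosomal RNA mt-Rnr1, singled out after its values were seen, had 678, 661 and 514 FPKM in MSC+Mel and 2116, 2908 and 7912 FPKM in Control (-2.57, adjusted p = 0.0678). No measure of RNA quality is given in the sources used here, and its part in these values was not tested.

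Among other cell types of the gut wall, list medians ran both ways in MSC+Mel. Smooth muscle and T cells were lower by theirs. So were enteric neuron, glia and pacemaker cells, at -0.42 with 10 of 11 genes below 0. Macrophages and monocytes stood at 0.45 with 18 of 22 above 0, and endothelial and lymphatic genes at 0.32 with 13 of 17 above. Of 17 smooth muscle genes, 15 had a fitted change below 0, 8 at an unadjusted p under 0.05 (6.13% of all genes were lower at that level). The smooth muscle median was -0.61, beside -0.01 in Melphalan. Des, desmin, had 27.2, 20.6 and 24.5 FPKM in MSC+Mel and 56.3, 50.2 and 40.4 FPKM in Control (-0.99, adjusted p = 0.136). The summed level of the list did not separate the groups, at 1231 to 1410 FPKM in MSC+Mel and 1102 to 1774 FPKM in Control. Of 23 genes of T cells and intraepithelial lymphocytes, 20 were below 0 and 4 at an unadjusted p under 0.05 (median -0.43). Gzma, granzyme A, had 34.6, 47.6 and 36.2 FPKM in MSC+Mel and 75.5, 53 and 177 FPKM in Control (-1.17, adjusted p = 0.343). The T cell list summed to 122 to 157 FPKM in MSC+Mel and to 184, 181 and 505 FPKM in Control, so the width of the gap rests on Control 3. None of the 10 mast cell markers passed the filter, and 5 of 23 pancreatic acinar genes did.

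**Figure D5:**
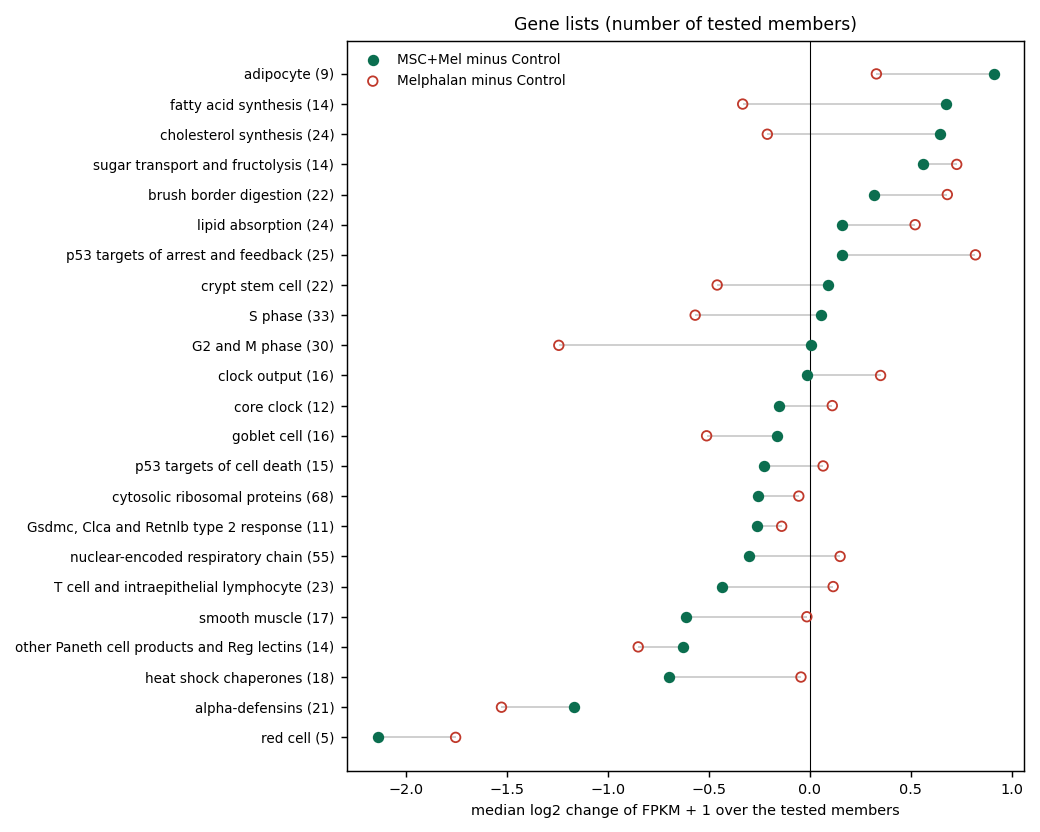
Median change (x axis, log2 of FPKM + 1) of the tested members of each gene list, with filled green points for MSC+Mel minus Control and open red points for Melphalan minus Control; the number of tested members is in brackets. For the G2 and M phase, S phase, stem cell and p53 arrest lists the green point lies nearer to 0 than the red one, for alpha-defensins both lie below -1, and for cholesterol synthesis, fatty acid synthesis and heat shock chaperones the green point is the one farther from 0.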

How the data were processed

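RNA of mouse small intestine was extracted with a QIAamp AllPrep kit and made into libraries with a TruSeq RNA kit, per the labels' protocols, which do not state strand. Reads from a gene and an antisense partner can therefore not be told apart. The deposited values are FPKM per gene, made by the authors with STAR, Cufflinks and Cuffnorm on mm10/GRCm38, per the submitters' processing notes, with the scaling between libraries, the versions and the annotation not given in the sources used here. The depth is unknown, so the spread between libraries is the one measure of precision. All 12 columns of the table were matched to labelled samples.

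From these values, a limma model (version 3.58.1, R 4.3.3) of log2(FPKM + 1) was fitted over all 12 libraries, with 1 mean per group, an intensity trend and 8 residual degrees of freedom, for genes at 1 FPKM or above in 3 libraries or more. P-values are two-sided and Benjamini-Hochberg adjusted over 12847 genes, called under 0.05. Intervals are 95% intervals of that fit. Each of the 114 symbols with several entries was tested entry by entry. The fitting script was first checked on simulated libraries of this layout. Coordinates are from GENCODE M21 (GRCm38), which holds 99.5% of the table's identifiers. Promoters are from RefSeq (GRCm38.p6). Figures were drawn with matplotlib 3.10.9.

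The named genes are up to 10 called genes in each direction with the largest changes, groups that do not overlap and a higher mean of at least 5 FPKM, leaving out predicted genes, then up to 3 members of each described list with the smallest p and a panel of markers. Other members of the described lists are named to follow a pathway. The members and the 62 gene lists were chosen with earlier results of these data known, so list counts and medians are descriptions, without a test. Lists share some genes. A few genes that the rule or the lists hold are counted but not reported here. Alternatives changed the pseudocount to 0.1, dropped the filter or set it at a mean of 5 FPKM, or used quantile and median-of-ratios scaling, the 6 libraries by themselves, weights by group variance, no trend, a replicate block, or 1 library fewer.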

Additional observations from a re-analysis of the deposited data

Results flagged for a closer look

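For 6 of the called genes the change against Control differed between MSC+Mel and the drug alone, by limma's test of MSC+Mel against Melphalan, which shares its MSC+Mel libraries with the first comparison. Tns4 was 1.43 higher on the log2 scale in MSC+Mel than in Melphalan (adjusted p = 0.0110). Banp (adjusted p = 0.0261), Ythdc1 (0.0377), Nlrp9b (0.0412), Tmem265 (0.0412) and Irf2bp2 (0.0443) were lower in MSC+Mel. In all 6 genes each of the 3 MSC+Mel libraries lay on the same side of all 3 Melphalan libraries. The 6 were picked by the test of these same libraries, so this adds no separate support. Tns4 was in addition the one called gene whose change against Control differed between MSC+Mel and Mel+MSC (adjusted p = 0.0378), with 9.39 ± 1.45 FPKM in MSC+Mel and 2.24 ± 0.357 FPKM in Mel+MSC (SD, n = 3 each).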

How the results depend on the processing

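Absolute depth is unknown, groups hold 3 libraries each, and residual variances differ between groups, so a gene without a call may still have changed. Against 22 calls (36.4% higher), the count was 19 with a pseudocount of 0.1, 19 without a filter (52.6% higher), 24 at a mean of 5 FPKM, 52 after quantile normalization (48.1% higher), 22 after median-of-ratios scaling, 55 in the 6 libraries alone (50.9% higher, 17 of them among the 22), 362 with weights by group variance (48.3% higher, all 22 included), and 16 without the trend. The median-of-ratios factors ran from 0.9924 to 1.027, so that setting could hardly move the count. With a replicate block the count was 5. The numbers do not pair the libraries: the deviations of same-numbered libraries correlated at -0.0908, -0.17 and -0.0183. Leaving out each library gave 0 to 8 calls. No call changed sign in any of these settings. Since the groups did not overlap in the called genes, leaving out a library could not have turned a sign. The genes with an interval within 1 log2 unit of 0 numbered 20689 of 26048 without a filter and 5441 of 8111 at a mean of 5 FPKM. Among list medians, p53 arrest was 0.23 and the red cell list -5.08 with a pseudocount of 0.1, the core clock -0.64 and the red cell list -4.17 at a mean of 5 FPKM, and ribosomal proteins -0.011 after quantile normalization, which also put Bax at 0.015. Leaving out each library moved the p53 arrest median between 0.10 and 0.20, sugar transport between 0.18 and 0.86, the core clock between -0.35 and -0.041, and adipocytes between 0.57 and 1.13. It turned the sign of these uncalled genes: Olfm4 (-0.66 to 0.49), Mki67 (-0.039 to 0.51), Ccnb2 (-0.42 to 0.067), Bax (-0.30 to 0.092), Apoa4 (-0.26 to 0.33), Reg3b (-0.42 to 0.93), Reg3g (-0.64 to 0.56) and Melk (-0.30 to 0.11). The cause of each shift was not tested.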

Other observations

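Several gene groups outside the injury readouts also had medians away from 0 in MSC+Mel against Control, again without a call. Amino acid and peptide carriers, 17 genes, had a median of 0.42, beside 0.61 in Melphalan. In MSC+Mel 15 were above 0 and 5 higher at an unadjusted p under 0.05. Slc36a1, a proton-coupled amino acid carrier, had 57.6, 49.7 and 48.0 FPKM in MSC+Mel and 12.6, 25.3 and 22.3 FPKM in Control (1.38, adjusted p = 0.0672), and Slc15a1, the peptide carrier PEPT1, changed by 0.86 (adjusted p = 0.206). Of 9 efflux pumps of the ABC family, 5 were higher at an unadjusted p under 0.05 and 1 lower. Their median was 0.53, beside 0.88 in Melphalan. Abcc2, which exports conjugated drugs and bile pigments, had 45.3, 97.4 and 55.9 FPKM in MSC+Mel and 27.5, 17.3 and 41.1 FPKM in Control (1.19, adjusted p = 0.210). In Slc36a1 and Abcc2 all MSC+Mel libraries were above all Control libraries.

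Enteroendocrine genes, 18 tested, had a median of -0.47, beside -0.37 in Melphalan. In MSC+Mel 14 were below 0 and 9 lower without overlap (14.4% of all genes were). Cpe, the carboxypeptidase that matures peptide hormones, had 26.5, 22.3 and 25.9 FPKM in MSC+Mel and 108, 50 and 59.4 FPKM in Control (-1.43, adjusted p = 0.201). Gip, the incretin of K cells, had 23.3, 25.6 and 23.9 FPKM in MSC+Mel and 37.0, 62.9 and 89.1 FPKM in Control (-1.25, adjusted p = 0.399). Of 40 interferon-induced genes, 28 were below 0 and 5 lower at an unadjusted p under 0.05, with a median of -0.17, beside 0.05 in Melphalan. The immunoproteasome subunit Psmb8 had 85.5, 75.4 and 102 FPKM in MSC+Mel and 156, 161 and 187 FPKM in Control (-0.93, adjusted p = 0.154). These genes were picked for their p within lists, so the values are descriptions.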
